A study of Mus musculus with 9 samples.

Results

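A set of 9 genes of superoxide chemistry was followed in the abdominal aorta: the NADPH oxidase genes Cybb, Cyba, Ncf1, Ncf4, Rac2 and Nox4 and the superoxide dismutase genes Sod1, Sod2 and Sod3. They were taken by name, as every non-control probe of the array whose gene name in the scanner files was 1 of these 9, which gave 12 probes. They are 9 of the 16402 genes tested and of the 23612 gene symbols on the array. NADPH oxidases move electrons from NADPH across a membrane to oxygen. The phagocyte oxidase of macrophages and neutrophils is silent until its cytosolic subunits and a Rac GTPase join the membrane pair encoded by Cybb and Cyba, and it then releases superoxide. Nox4, found in smooth muscle, endothelium and fibroblasts, needs the Cyba product but not the cytosolic subunits, and releases mostly hydrogen peroxide. Superoxide dismutases turn superoxide into hydrogen peroxide in the cytosol (Sod1), in mitochondria (Sod2) and outside the cell (Sod3, abundant in the arterial wall).

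All mice were B cell-deficient uMT mice on C57BL/6, so no group had normal B cells. The group uMT_Ca+IgG had 0.5 M CaCl2 laid around the abdominal aorta and mouse polyclonal IgG given into the peritoneum, and uMT_Ca had the CaCl2 alone. Aortas of both were taken on day 7. The group uMT_sham had saline in place of CaCl2, and the labels tie the day of sampling to the CaCl2 challenge alone. These groups are called CaCl2 plus IgG, CaCl2 and sham below. Each had 3 samples of total RNA, 1 per 1-colour Agilent array. The labels do not say that the samples came from separate animals, nor the age or sex of the mice, so a p-value here reflects scatter among the arrays, part of which may be technical.

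The values are log2 signals relative to the 75th percentile of the array, so 0 is the level of that percentile and a step of 1 is a doubling. That percentile was a signal of 270 to 455 in CaCl2 plus IgG, 381 to 496 in CaCl2 and 267 to 302 in sham aortas. Replicate 3 of CaCl2 plus IgG stood apart from the other 8 arrays, at -74.4 on the second principal component against 0.82 to 15.8. On the first component (69.1% of the variance) it was at 2.46. The other treated arrays were at 33.1 to 70.4 there and the sham arrays at -103.7 to -78.6. Sham replicate 3 was the only array on the second slide. On the first slide the CaCl2 arrays lay in row 1 and the sham arrays in row 2, so group and row coincide there. All 12 probes were well above background on 3 of 3 arrays in each group. The number of arrays limits the precision of every value. As a check of the labelled tissue, 10 of 10 smooth muscle markers were well above background on every array.

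Probes of 1 gene can be compared where they read different stretches of its transcript. Cyba has 2 probes and Nox4 has 3, and in each set 1 probe covers more of the genome than its 60 bases, so it bridges a splice junction. These are shown because they read other sequence than the brightest probe of the gene. They are given 5′ to 3′ in lower case with the mm9 position of the file headers. The Cyba probe lies at chr8:124950893-124951161 on the minus strand, a span of 269 bases. The Nox4 probe lies at chr7:94472458-94487478 on the plus strand, a span of 15021 bases.
Cyba A_51_P131800: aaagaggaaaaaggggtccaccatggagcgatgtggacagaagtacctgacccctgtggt
Nox4 A_51_P369311: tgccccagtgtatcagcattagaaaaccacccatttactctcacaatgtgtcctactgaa
The brightest probe of Cyba is at chr8:124948726-124948785 and that of Nox4 at chr7:94547025-94547084, with the third Nox4 probe at chr7:94547113-94547172. The remaining probes lie at chrX:9013216-9013275 for Cybb, chr5:134696380-134696439 for Ncf1, chr15:78092903-78092962 for Ncf4 and chr15:78391452-78391511 for Rac2. Those of the dismutases lie at chr16:90226509-90226568 for Sod1, chr17:13208074-13208133 for Sod2 and chr5:52760685-52760744 for Sod3. No exon annotation of mm9 was used here, so the exon or UTR under a probe is not stated.

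Cybb and Nox4 encode the catalytic subunits and moved in opposite directions, so their start regions are printed. RefSeq windows of GRCm38.p6, 250 bases before to 50 after the start site, were matched for 6 of the 9 genes (Cybb, Cyba, Ncf1, Nox4, Sod1 and Sod2). Motifs were searched on both strands and are in capitals: GAGGAA, the core letters of a purine-rich box, GGGCGG, a GC box, and CCAAT. The windows are chrX:9469275-9469574 on the minus strand for Cybb and chr7:87246399-87246698 on the plus strand for Nox4.
Cybb: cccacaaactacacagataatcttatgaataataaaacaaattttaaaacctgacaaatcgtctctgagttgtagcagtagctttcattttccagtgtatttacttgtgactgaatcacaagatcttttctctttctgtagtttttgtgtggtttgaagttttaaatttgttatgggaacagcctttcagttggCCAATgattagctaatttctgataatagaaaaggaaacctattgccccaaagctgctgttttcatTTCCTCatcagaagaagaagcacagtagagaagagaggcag
Nox4: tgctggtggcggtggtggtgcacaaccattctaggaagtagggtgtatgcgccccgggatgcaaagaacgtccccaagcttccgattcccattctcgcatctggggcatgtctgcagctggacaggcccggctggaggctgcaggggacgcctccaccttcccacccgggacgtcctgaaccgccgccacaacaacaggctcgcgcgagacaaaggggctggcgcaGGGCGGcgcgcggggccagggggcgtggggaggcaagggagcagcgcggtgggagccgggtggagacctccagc
The Cybb window held 1 CCAAT and 1 TTCCTC, the purine-rich box read on the other strand, and no GC box. The Nox4 window held 1 GC box and neither of the other motifs. Over 32851 windows of this length, 28.3% held GAGGAA, 35.7% held GGGCGG and 37.4% held CCAAT, on either strand. The share of G and C was 35.3% in the Cybb window and 68.3% in the Nox4 window, with a median of 52.7% over all windows. GC boxes numbered 2 in Cyba, 1 in Ncf1, 4 in Sod1 and 4 in Sod2. The Sod2 window also held the purine-rich box, and the Sod1 and Sod2 windows held CCAAT. Neither of these motifs was in the Cyba or Ncf1 window. The TTCCTC of Cybb lay after the start site. The matches describe letters in these windows only.

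The comparison of CaCl2 with sham asked which of these genes differ in the aorta after periaortic CaCl2. All 5 phagocyte oxidase genes were higher after CaCl2, by 2.27-fold (Cyba) to 7.76-fold (Ncf4), and Nox4 was 2.47-fold lower. Sod1 was 1.44-fold lower, while Sod2 and Sod3 did not pass the test. In RNA of whole tissue, fewer cells of a type and less RNA per cell cannot be told apart. In all, 5 of 9 rose and 2 fell at an adjusted p under 0.05 (limma, Benjamini-Hochberg over 16402 genes). Of all genes, 36.7% were called, 17.5% higher and 19.2% lower, so calls in either direction were common. Higher calls were 47.7% of the calls, 77.1% with arrays scaled to their median and 32.8% without the filter on dim probes. The median difference of the 9 genes was 1.18 and that of all genes -0.08 on the log2 scale. The arrays of the groups did not overlap for the 7 called genes, as for 56.7% of all genes (24.7% higher and 32% lower).

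The membrane pair of the phagocyte oxidase is Cybb, the electron-carrying chain, and Cyba, the small chain that keeps it stable. Cybb read 1.06, 0.83 and 0.74 in CaCl2 plus IgG, 0.90, 1.33 and 1.67 in CaCl2 and -1.51, -0.62 and -2.34 in sham aortas. Every array of both CaCl2-treated groups was above every sham array, and the treated groups overlapped. Cybb was higher by 2.79 ± 0.40 on the log2 scale in CaCl2 than in sham aortas (SE, n = 3 each, limma adjusted p = 0.00170), a 6.90-fold rise. Its group means were 1.30 ± 0.39 in CaCl2 and -1.49 ± 0.86 in sham aortas (SD, n = 3), with the sham arrays spread most. The brightest Cyba probe read 6.35, 6.11 and 6.13 in CaCl2 plus IgG, 6.40, 6.36 and 6.78 in CaCl2 and 5.28, 5.71 and 5.01 in sham aortas. The sham arrays were again the lowest 3. Cyba was higher by 1.18 ± 0.20 in CaCl2 than in sham (limma adjusted p = 0.00382). The second Cyba probe, which bridges a splice junction, read 3.52, 3.25 and 2.98 in CaCl2 plus IgG, 3.55, 3.43 and 3.59 in CaCl2 and 2.35, 2.55 and 1.49 in sham aortas. Fitted on its own among all kept probes, it differed by 1.40 ± 0.28 (limma adjusted p = 0.00860), the same direction as the brighter probe.

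The cytosolic partners are Ncf1, the organiser that carries the complex to the membrane, Ncf4, which binds a membrane lipid and aids assembly on phagosomes, and Rac2, the Rac GTPase of blood cells. Ncf1 read 0.93, 1.40 and 1.42 in CaCl2 plus IgG, 1.16, 1.42 and 1.70 in CaCl2 and -0.43, -0.27 and -1.49 in sham aortas. It was higher by 2.16 ± 0.32 in CaCl2 than in sham (limma adjusted p = 0.00215), with no overlap of arrays. Ncf4 had the largest difference of the 9 genes and ranked 310 of 16402 genes from the highest. It read 3.73, 3.49 and 3.19 in CaCl2 plus IgG, 3.70, 3.48 and 4.17 in CaCl2 and 0.87, 1.68 and -0.06 in sham aortas. The difference was 2.96 ± 0.40 between CaCl2 and sham (limma adjusted p = 0.00147). Rac2, measured on 10 spots per array, read 2.27, 2.19 and 2.37 in CaCl2 plus IgG, 2.06, 2.19 and 2.71 in CaCl2 and 0.29, 0.47 and -1.26 in sham aortas. Its difference was 2.49 ± 0.42 between CaCl2 and sham (limma adjusted p = 0.00342). Sham replicate 3, alone on its slide, was the lowest sham array for all 5 phagocyte genes. Within the first slide, without that array, the CaCl2 minus sham differences were 2.36 for Cybb, 1.02 for Cyba, 1.78 for Ncf1, 2.51 for Ncf4 and 1.94 for Rac2, and all 5 passed. Within that slide the CaCl2 and sham arrays lay in different rows, so group and row cannot be told apart in these differences. The second slide held 1 sham array only and gives no difference of its own.

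Nox4 encodes the oxidase of the vessel wall cells. Its brightest probe read 3.78, 4.02 and 4.33 in CaCl2 plus IgG, 4.03, 4.47 and 3.56 in CaCl2 and 5.35, 5.44 and 5.19 in sham aortas. All sham arrays were above all treated arrays, and sham aortas were the least spread. Nox4 differed by -1.31 ± 0.24 between CaCl2 and sham (limma adjusted p = 0.00479), and by -1.37 within the first slide, where group and row coincide. With arrays scaled to their median it differed by -0.83 (limma adjusted p = 0.0446). The neighbouring probe read 2.89, 3.16 and 3.42 in CaCl2 plus IgG, 3.13, 3.54 and 2.61 in CaCl2 and 4.50, 4.45 and 4.35 in sham aortas. The junction probe read -0.87, -0.32 and 0.57 in CaCl2 plus IgG, -0.23, -0.09 and -0.53 in CaCl2 and 1.77, 1.36 and 1.61 in sham aortas. Both showed sham arrays above every treated array. Fitted on their own, they differed by -1.34 ± 0.25 (limma adjusted p = 0.00643) and -1.86 ± 0.34 (limma adjusted p = 0.00605) between CaCl2 and sham.

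**Figure D1:**
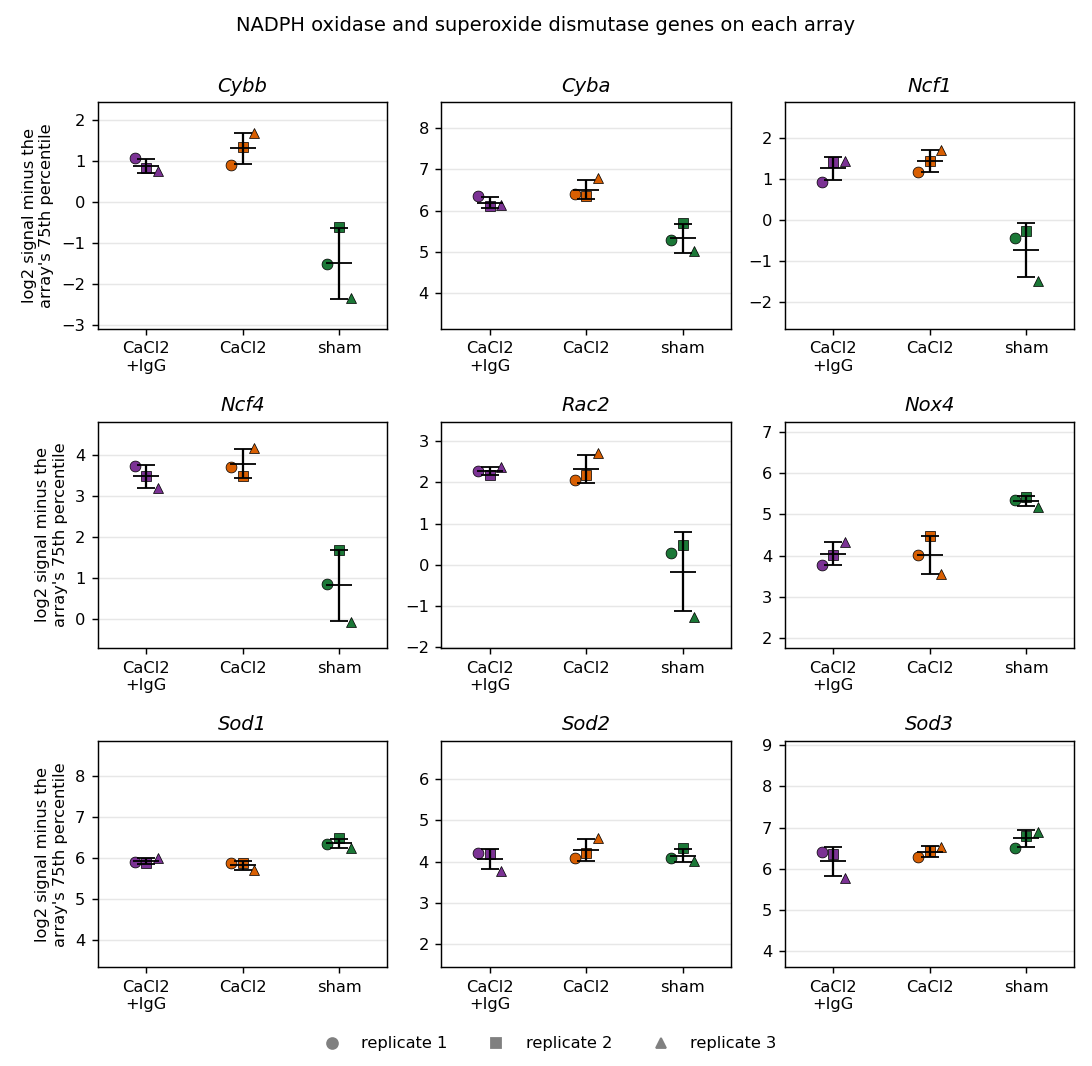
Signal of the 9 genes on each array, as log2 minus the 75th percentile of the array, for CaCl2 plus IgG, CaCl2 and sham, with points for arrays, a mark and bar for group mean and SD (n = 3), and the same span in each panel. The sham arrays are the lowest 3 for Cybb, Cyba, Ncf1, Ncf4 and Rac2 and the highest 3 for Nox4 and Sod1.

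**Figure D2:**
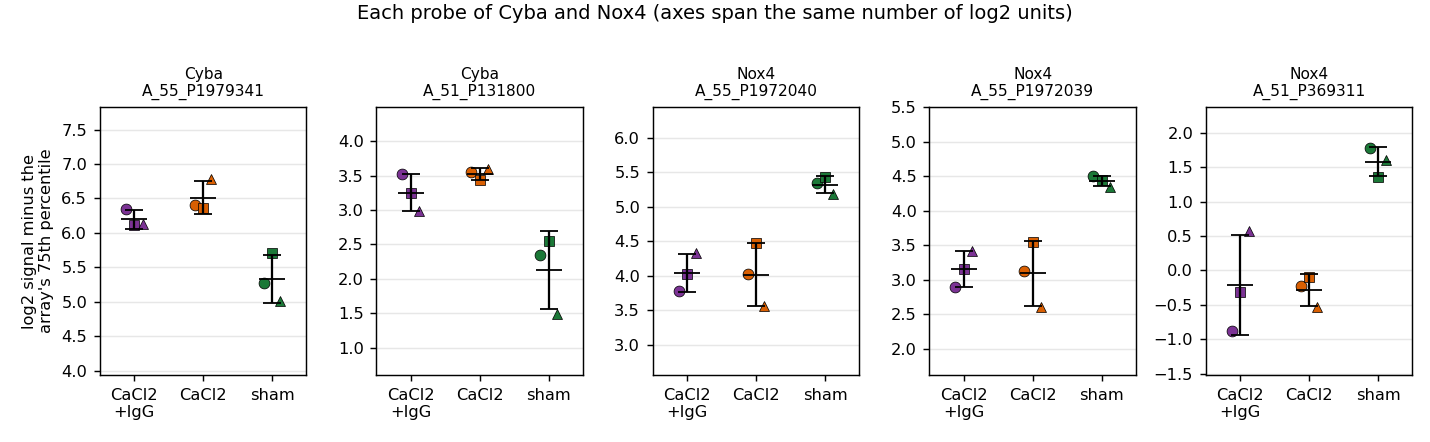
Each probe of Cyba and Nox4 by group, as log2 signal minus the 75th percentile of the array, with points for arrays and a mark and bar for group mean and SD (n = 3). Both Cyba probes are lower and all 3 Nox4 probes higher on every sham array than on any treated array.

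Of the dismutases, Sod1 is the copper and zinc enzyme of the cytosol. It read 5.91, 5.87 and 6.00 in CaCl2 plus IgG, 5.89, 5.88 and 5.70 in CaCl2 and 6.33, 6.47 and 6.24 in sham aortas. The spread within groups was small, and every sham array was above every treated array. Sod1 differed by -0.53 ± 0.12 between CaCl2 and sham (limma adjusted p = 0.0126). With arrays scaled to their median the difference was -0.05 (limma adjusted p = 0.885), a scaling that moved the median of all genes to 0.39. Its offset from the median of all genes was -0.45, the same under both scalings by construction. Blocking on the row in which an array sat on the slide gave an adjusted p of 0.0781 (limma).

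Sod2, the manganese enzyme of mitochondria, read 4.20, 4.19 and 3.77 in CaCl2 plus IgG, 4.08, 4.20 and 4.58 in CaCl2 and 4.09, 4.32 and 4.02 in sham aortas. The 3 groups overlapped. The difference between CaCl2 and sham was 0.14, with a 95% interval of -0.29 to 0.57 (limma adjusted p = 0.576). Sod3, the enzyme bound to extracellular matrix, read 6.40, 6.36 and 5.77 in CaCl2 plus IgG, 6.29, 6.43 and 6.54 in CaCl2 and 6.51, 6.80 and 6.90 in sham aortas. CaCl2 and sham overlapped, since CaCl2 replicate 3 was above sham replicate 1. The difference was -0.32, with an interval of -0.77 to 0.14 (limma adjusted p = 0.233), and it was 0.15 with median scaling. Both intervals lie within a log2 difference of 1 in either direction between CaCl2 and sham.

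Setting CaCl2 plus IgG against CaCl2 alone asked whether injected IgG altered these genes. None of the 9 passed, as for 0% of all genes: limma called 0 of 16402 genes, with 245 at an unadjusted p under 0.05 (1.49%) and 0 of the 9 genes among them. The differences were -0.42 for Cybb (95% interval -1.32 to 0.48), -0.32 for Cyba (-0.79 to 0.15), -0.17 for Ncf1 (-0.91 to 0.57), -0.31 for Ncf4 (-1.23 to 0.61) and -0.05 for Rac2 (-1.01 to 0.91). Nox4 differed by 0.03 (-0.52 to 0.58), Sod1 by 0.10 (-0.18 to 0.38), Sod2 by -0.23 (-0.66 to 0.19) and Sod3 by -0.24 (-0.70 to 0.21). The limma adjusted p was 1.00 for all 9. The 3 CaCl2 plus IgG arrays lay below the 3 CaCl2 arrays for Cyba, by a margin between 6.35 and 6.36. Non-overlap of this kind was found for 5.04% of all genes (2.65% higher and 2.4% lower). The intervals reach beyond a log2 difference of -1 in Cybb, Ncf4 and Rac2. The CaCl2 arrays lay in row 1 of the slide and CaCl2 plus IgG replicates 2 and 3 in row 2. With the row as a block, the differences were -0.75 for Cybb, -0.40 for Cyba, -0.72 for Ncf1, -0.62 for Ncf4 and -0.60 for Rac2. They were -0.17 for Nox4, 0.04 for Sod1, -0.22 for Sod2 and -0.05 for Sod3, and none of the 9 passed.

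The comparison of CaCl2 plus IgG with sham gave the same directions for the called genes as CaCl2 alone, and both share the sham arrays. Here 5 of 9 genes rose and 2 fell, where 29.1% of all genes were called, 14.8% higher and 14.2% lower. Higher calls were 51.0% of the calls and 71.8% with arrays scaled to their median. The differences were 2.37 for Cybb, 0.86 for Cyba, 1.98 for Ncf1, 2.64 for Ncf4 and 2.44 for Rac2, with limma adjusted p of 0.00366, 0.0156, 0.00328, 0.00253 and 0.00405. Cyba lost its call without CaCl2 plus IgG replicate 1 (limma adjusted p = 0.0533) and without sham replicate 3 (0.0502). Nox4 differed by -1.28 ± 0.24 (limma adjusted p = 0.00596). Sod1 differed by -0.43 ± 0.12 (limma adjusted p = 0.0328), a call lost in 13 of 23 other settings. Sod2 differed by -0.09 (interval -0.52 to 0.34). Sod3 differed by -0.56 ± 0.20 (limma adjusted p = 0.0663). Without CaCl2 plus IgG replicate 3, the array that stood apart, Sod3 differed by -0.35 from sham (limma adjusted p = 0.111) and by -0.04 from CaCl2. Its CaCl2 plus IgG arrays lay below all sham arrays, and arrays did not overlap for 8 of the 9 genes, as for 44.4% of all genes (20.4% higher and 24% lower).

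**Figure D3:**
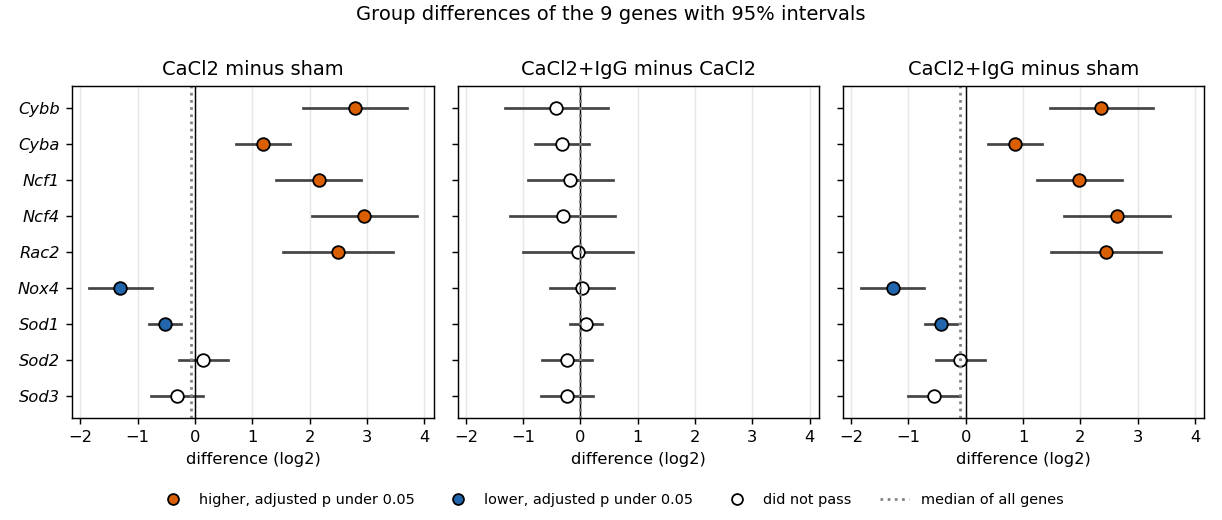
Differences of the 9 genes in the 3 comparisons on the log2 scale, with 95% intervals from limma and the median of all genes as a dotted line. The 5 phagocyte oxidase genes are right of 0 and Nox4 and Sod1 left of it in both comparisons with sham, and all 9 intervals cross 0 between CaCl2 plus IgG and CaCl2.

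Marker lists of cell types were read beside these genes, and the lists did not all move in the same direction. The mean log2 level of 14 monocyte and macrophage markers was 3.17 to 3.31 in CaCl2 plus IgG, 3.11 to 3.30 in CaCl2 and 0.25 to 1.74 in sham aortas, with sham replicate 3 the lowest. In CaCl2 against sham, 11 of the 14 rose and Mertk, a receptor for the uptake of dying cells, fell by 0.84 on the log2 scale. The mean of 10 neutrophil markers was -0.41 to 0.02 in CaCl2 plus IgG, -0.71 to 0.03 in CaCl2 and -2.18 to -1.99 in sham aortas. Of these, 4 of 10 rose in CaCl2 against sham (2 without CaCl2 replicate 3 or with normexp, and 0 when genes had to be detected on each of the 9 arrays), 3 were well above background on no sham array, and Ngp was so on no array. Some of those 3 markers were among the 4 that rose. The filter kept them only through treated arrays, so their tests against sham are no independent support. The mean of 10 smooth muscle markers was 3.86 to 4.46 in CaCl2 plus IgG, 3.64 to 4.73 in CaCl2 and 6.13 to 6.29 in sham aortas. All 10 fell in CaCl2 against sham, with a median difference of -2.21, as Nox4 did. Of 8 fibroblast markers, 5 rose in CaCl2 and 6 in CaCl2 plus IgG against sham, and 0 fell. The mean of 8 T and NK cell markers was -0.45 to -0.10 in CaCl2 plus IgG, -0.51 to 0.42 in CaCl2 and -2.30 to -1.86 in sham aortas, where 2 were well above background on no array. Of these 8, 5 rose and 1 fell in CaCl2 against sham (3 called without sham replicate 2 or with normexp, 2 when genes had to be detected on each of the 9 arrays). The 2 markers without a detected sham array were among the 5 that rose. They too were kept only through treated arrays, and their tests against sham are no independent support. The mean of 4 fat markers was -0.20 to 0.78 in CaCl2 plus IgG, 0.44 to 1.80 in CaCl2 and 1.90 to 3.07 in sham aortas. Of these 4, 2 fell in CaCl2 against sham (1 without CaCl2 replicate 1 or 3 or sham replicate 1 or 2, 4 without CaCl2 replicate 2), and Lep and Ucp1 were well above background on no array. The mean of 2 skeletal muscle markers was -0.36 to -0.27 in CaCl2 plus IgG, -0.38 to -0.19 in CaCl2 and 0.69 to 1.12 in sham aortas. Only 1 of these 2 was well above background on every sham array. The list held 5 markers, of which Ckm and Myh4 were well above background on no array and Mylpf on 1. Of 8 endothelial markers, 2 rose and 2 fell in CaCl2 against sham (2 called without CaCl2 replicate 1 or 2 or sham replicate 2 or 3). The part of cell type in the differences of the 9 genes was not tested.

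**Figure D4:**
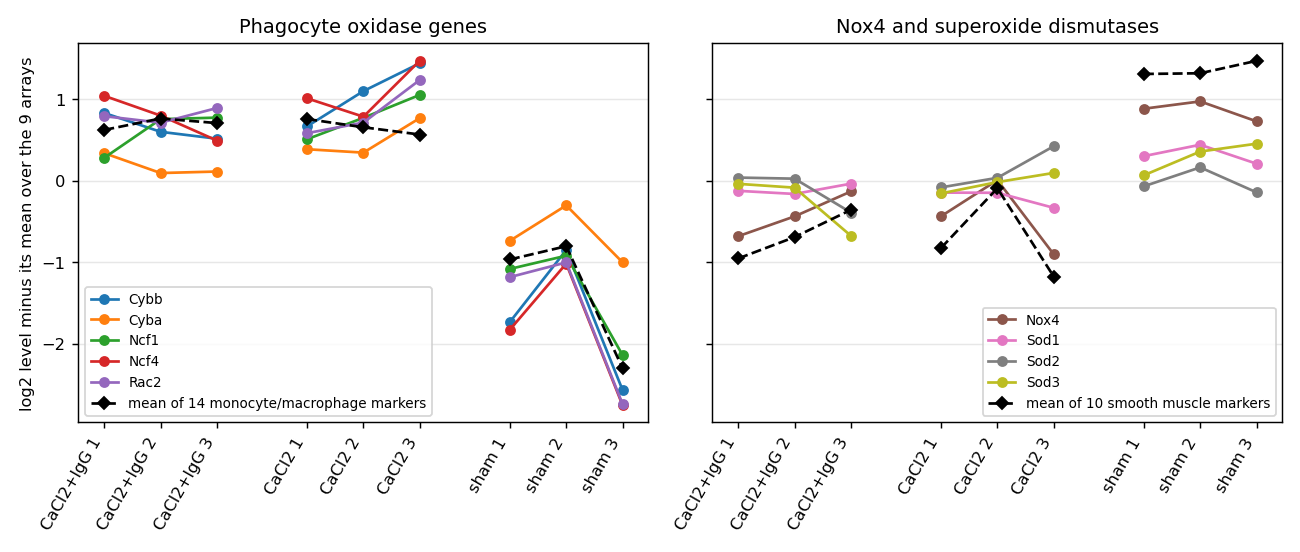
Log2 level of each gene minus its mean over the 9 arrays, with the mean of the marker list as black diamonds and lines that join values of 1 gene without implying an order. Left are the phagocyte oxidase genes and the mean of 14 monocyte and macrophage markers, each of these lines lowest in sham replicate 3, and right are Nox4 and the dismutases with 10 smooth muscle markers, whose mean is highest on the sham arrays, as Nox4 and Sod1 are.

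The profiles of the phagocyte genes Cybb, Ncf1, Ncf4 and Rac2 were close to each other over the arrays, and that of Cyba was not. After each gene's own mean was taken off, Cybb and Ncf4 differed by 0.17 on the log2 scale per array on average, and Ncf1 and Rac2 by 0.20. Cyba kept a distance of 0.48 to 0.79 from the other 4. Of the 9 genes, Sod2 was the nearest to Cyba, at 0.44, with Sod3 at 0.65 and Sod1 at 0.67. The genes nearest to Cybb by this measure over 9 arrays were Myo1g (0.138), Itgb2 (0.139), Irf5 (0.147), Cotl1 (0.149) and Myo1f (0.154), with a median of 1.18. Neighbours and medians are over the tested genes with a RefSeq symbol, with Rik and numbered Gm names left out. Those nearest to Nox4 were Eva1c (0.0878), Syde2 (0.0953), Tns1 (0.0975), Sorbs2 (0.108) and Sgcd (0.109), with a median of 0.604. Those nearest to Sod3 were Nupl2, Stub1, Soga1, Mlf2 and Trp53, at 0.0822 to 0.0931, with a median of 0.338. These distances are descriptions of 9 arrays that share their groups.

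Other oxidase subunits and maturation factors numbered 11, of which 8 were tested. Nox3 and Duox1 were well above background on no array and Nox1 on 1. In CaCl2 against sham, 2 rose and 2 fell, with a median difference of 0.03 over the list, beside -0.08 over all genes. Duoxa2, a maturation factor of a dual oxidase, had no sham array well above background. The filter thus kept it only through treated arrays, and its test against sham is no independent support. In the processing reported it was at least 2.12-fold higher in CaCl2. The limma adjusted p of 0.0238 belongs to the measured log2 difference of 2.17, not to this bound. With normexp background correction Duoxa2 differed by 0.06 on the log2 scale (limma adjusted p = 0.735). Its CaCl2 mean was -3.19 and its sham mean -5.36. Noxo1, an organiser for Nox1, fell by 0.95 (limma adjusted p = 0.0160), a call lost with arrays scaled to their median (-0.48, limma adjusted p = 0.259). Duox2 was the other lower call, at -0.59 (limma adjusted p = 0.0449), but was well above background on 2 of 3 CaCl2 and 1 of 3 sham arrays, so this value lies near background. Its sign turned with quantile normalization and in the authors' deposited value table (0.039 in both). The Noxo1 call was lost without CaCl2 replicate 1 or 3 or sham replicate 2 or 3 (limma adjusted p up to 0.0571). Duoxa2 lost its call without any 1 CaCl2 replicate or without sham replicate 1 or 3, and Duox2 without any 1 treated array other than CaCl2 plus IgG replicate 3 or without sham replicate 1 or 3, with adjusted p up to 0.0802 and 0.127 (limma). The count of 4 called was 1 without CaCl2 replicate 1, without CaCl2 replicate 3 or without sham replicate 3, and 2 without sham replicate 1. Over all settings the count was 1 to 4. In CaCl2 plus IgG against sham, 1 rose and 1 fell, and the one that fell was Noxo1, by 1.07 (limma adjusted p = 0.0114, and 0.0890 with arrays scaled to their median).

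Of 13 other small GTPases and regulators of oxidase assembly, 8 rose and 1 fell in CaCl2 against sham, with a median difference of 1.11. Vav1, an exchange factor that loads Rac with GTP in blood cells, read 3.11, 3.43 and 3.22 in CaCl2 plus IgG, 3.13, 3.12 and 3.71 in CaCl2 and 0.34, 0.72 and -0.23 in sham aortas. Its rise was 3.05 ± 0.26 (limma adjusted p = 0.000372), with sham arrays far below. Hvcn1, the proton channel that balances the charge moved by the oxidase, rose by 2.28 ± 0.40 (limma adjusted p = 0.00412). Sh3pxd2a, an organiser-like scaffold of cell protrusions, fell by 1.07 (limma adjusted p = 0.0402), with the call lost with arrays scaled to their median (-0.60, limma adjusted p = 0.140), within the first slide (0.125) and without sham replicate 1 or any 1 CaCl2 replicate. In CaCl2 plus IgG against sham, 8 rose and 0 fell. Vav1 rose by 2.98 and Dock2, another Rac exchange factor of blood cells, by 2.01, against 1.06 with normexp (limma adjusted p = 0.00189).

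Copper handling serves Sod1 and Sod3. Of 4 genes, 3 rose in CaCl2 against sham and 3 in CaCl2 plus IgG against sham, where 1 was called without CaCl2 plus IgG replicate 1 or 2 or without sham replicate 1. With the row of the slide as a block, 1 was called in CaCl2 against sham, as with arrays scaled to their median in CaCl2 plus IgG. Atox1, the copper chaperone of the secretory route, read 6.57, 6.40 and 6.36 in CaCl2 plus IgG, 6.45, 6.23 and 6.50 in CaCl2 and 5.66, 5.87 and 5.73 in sham aortas. It rose by 0.64 ± 0.13 in CaCl2 (limma adjusted p = 0.00771) and by 0.69 in CaCl2 plus IgG against sham. Slc31a1, the copper importer, rose by 0.64 and 0.63 in the same comparisons, the second lost in those same 3 cases (limma adjusted p up to 0.0572). The median difference of the list was 0.64 in CaCl2 and 0.55 in CaCl2 plus IgG against sham. Ccs, the chaperone that loads copper into Sod1, was the list member that did not pass. It differed by 0.06 between CaCl2 and sham (limma adjusted p = 0.756).

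Hydrogen peroxide removal had 1 of 12 genes higher and 1 lower in CaCl2 against sham, with a median difference of 0.23. Prdx1, a peroxiredoxin, rose by 0.72 ± 0.18 (limma adjusted p = 0.0169), a call lost without CaCl2 replicate 3 or sham replicate 3. Its second probe differed by 0.31. Cat, catalase, read 2.88, 2.64 and 4.73 in CaCl2 plus IgG, 2.83, 3.25 and 1.89 in CaCl2 and 4.15, 4.18 and 4.57 in sham aortas. By its brightest probe it fell by 1.64 ± 0.55 in CaCl2 (limma adjusted p = 0.0471), while its second probe differed by -0.33, and CaCl2 plus IgG replicate 3, the array that stood apart, lay above all sham arrays. The Cat call was lost without CaCl2 plus IgG replicate 1, CaCl2 replicate 1 or 3, or any 1 sham replicate (limma adjusted p up to 0.146). The count of 2 called was 0 without sham replicate 3, 4 without CaCl2 plus IgG replicate 3, and 1 without CaCl2 plus IgG replicate 1, CaCl2 replicate 1 or 3, or sham replicate 1 or 2. Over all settings it was 0 to 4 in both comparisons with sham. In CaCl2 plus IgG against sham, 2 rose: Gpx3, the extracellular glutathione peroxidase, by 1.85 ± 0.59 (limma adjusted p = 0.0464) and Prdx1 by 0.60 (limma adjusted p = 0.0388). Both calls were lost without CaCl2 plus IgG replicate 1 or 2 or any 1 sham replicate, Gpx3 also without CaCl2 replicate 2 and Prdx1 without CaCl2 replicate 1. That count was 0 without CaCl2 plus IgG replicate 1 or 2 or without any 1 sham replicate, 1 without CaCl2 replicate 1 or 2, and 4 without CaCl2 plus IgG replicate 3.

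Thioredoxin and glutathione genes numbered 12, of which 3 rose and 2 fell in CaCl2 against sham, with a median difference of 0.12. Srxn1, which repairs peroxiredoxins, rose by 0.93 ± 0.22 (limma adjusted p = 0.0139), and Txnrd1, the cytosolic thioredoxin reductase, by 0.62. Txnrd3, another reductase of this family, fell by 0.99 (limma adjusted p = 0.00545) and Gclc, the catalytic subunit for glutathione synthesis, by 0.52. Txnrd1 lost its call without any 1 CaCl2 or sham replicate (limma adjusted p up to 0.0935), and Gclc without any 1 CaCl2 replicate or sham replicate 1 or 2 (up to 0.0880). Called genes numbered 2 without CaCl2 replicate 2 or 3 or sham replicate 2, and 3 without sham replicate 1 or 3. With the row of the slide as a block 1 was called. With arrays scaled to their median both falls lost their call, at -0.52 for Txnrd3 and -0.04 for Gclc (limma adjusted p = 0.199 and 0.921). In CaCl2 plus IgG against sham, 2 rose and 2 fell. Srxn1 rose by 0.75 and Glrx, glutaredoxin, by 0.59, and Txnrd3 fell by 0.96 and Gclc by 0.62. Srxn1 lost this call without any 1 array other than CaCl2 plus IgG replicate 3 (limma adjusted p up to 0.0988), Glrx likewise but for CaCl2 replicate 3 (up to 0.148), and Gclc without replicate 2 of CaCl2 plus IgG or of sham (up to 0.0604). That count was 0 with arrays scaled to their median, 1 without CaCl2 plus IgG replicate 2 or sham replicate 2, and 2 without CaCl2 plus IgG replicate 1, CaCl2 replicate 1 or 2, or sham replicate 1 or 3.

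Of 8 tested genes of Nrf2 and its targets, 1 rose and 1 fell in CaCl2 against sham, with a median difference of 0.12. Hmox1, heme oxygenase, read 2.29, 3.10 and -0.30 in CaCl2 plus IgG, 2.43, 2.06 and 2.46 in CaCl2 and -2.23, -1.84 and -2.21 in sham aortas. By this brightest probe it rose by 4.41 ± 0.72 in CaCl2 (limma adjusted p = 0.00307) and by 3.79 in CaCl2 plus IgG against sham, where replicate 3 lay well below the other two. Its second probe differed by 2.08 and 1.86. Gstm1, a glutathione transferase, fell by 1.23 in CaCl2 and by 1.20 in CaCl2 plus IgG against sham. Mt2, a metallothionein, rose by 1.47 in CaCl2 plus IgG against sham, where 2 rose and 1 fell. Gstm1 lost its call with arrays scaled to their median, at -0.76 in CaCl2 (limma adjusted p = 0.163) and -0.96 in CaCl2 plus IgG (0.119). It lost it without sham replicate 2 or 3 in both comparisons, and also without CaCl2 plus IgG replicate 2 in the second (limma adjusted p up to 0.0746). Mt2 lost its call without CaCl2 plus IgG replicate 2 or any 1 sham replicate (up to 0.0746). The count in CaCl2 against sham was 4 without CaCl2 plus IgG replicate 1, 5 without CaCl2 replicate 2, and 1 without sham replicate 2 or 3. With normexp or with only the groups compared in the fit it was 4. The count in CaCl2 plus IgG against sham was 1 without CaCl2 plus IgG replicate 2 or sham replicate 2 or 3.

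Of 7 tested other oxidant sources, 3 rose and 1 fell in each comparison with sham, with median differences of -0.36 in CaCl2 and -0.12 in CaCl2 plus IgG. Nos2, the inducible nitric oxide synthase, read -0.19, 0.28 and -0.84 in CaCl2 plus IgG, 0.46, 0.45 and 1.23 in CaCl2 and -2.30, -2.34 and -1.53 in sham aortas. It rose by 2.77 ± 0.36 in CaCl2 (limma adjusted p = 0.00117) and by 1.81 in CaCl2 plus IgG against sham (limma adjusted p = 0.00719), the second 1.104 with normexp (0.0113). Mpo, myeloperoxidase of neutrophil granules, had no sham array well above background. The filter thus kept it only through treated arrays, and its tests against sham are no independent support. In the processing reported it was at least 1.23-fold higher in CaCl2 and at least 1.16-fold higher in CaCl2 plus IgG. The limma adjusted p of 0.0339 and 0.0475 belong to the measured log2 differences of 1.65 and 1.56, not to these bounds. With normexp the sign of Mpo turned in both, to -0.093 in CaCl2 (limma adjusted p = 0.724) and -0.040 in CaCl2 plus IgG (0.891). Its means were -4.06 in CaCl2 plus IgG, -3.97 in CaCl2 and -5.62 in sham aortas. Maoa, a mitochondrial amine oxidase, fell by 0.66 in CaCl2 and by 0.60 in CaCl2 plus IgG against sham. In CaCl2, the Mpo and Maoa calls were lost without CaCl2 replicate 1 or 3 or sham replicate 1 or 3, and Maoa also without sham replicate 2. With arrays scaled to their median Maoa was -0.19 in CaCl2 (limma adjusted p = 0.647) and -0.36 in CaCl2 plus IgG (0.463). In CaCl2 plus IgG, both were lost without any 1 CaCl2 plus IgG replicate, CaCl2 replicate 1 or sham replicate 1 or 3, and Maoa also without sham replicate 2. The count of 4 was 2 without CaCl2 replicate 3 or sham replicate 1 or 3 in CaCl2 against sham. In CaCl2 plus IgG against sham it was 2 without any 1 CaCl2 plus IgG replicate, without CaCl2 replicate 1, or without sham replicate 1 or 3. Between CaCl2 plus IgG and CaCl2, 0 genes of these 7 lists passed.

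**Figure D5:**
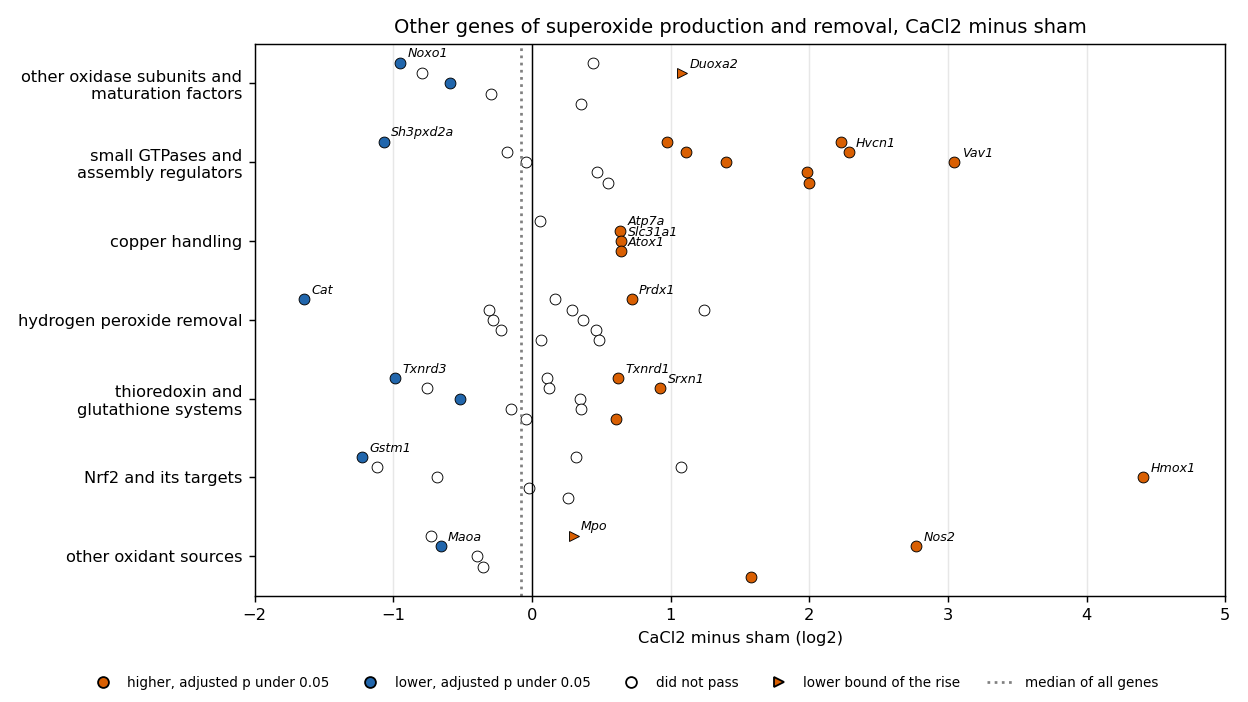
Difference between CaCl2 and sham on the log2 scale for the reported genes of the 7 lists of superoxide production and removal, by the brightest probe, with triangles for lower bounds of genes with no sham array well above background. Hmox1, Vav1 and Nos2 lie farthest to the right, at 4.41, 3.05 and 2.77, and Cat farthest to the left at -1.64, whereas the second probes of Hmox1 and Cat, not drawn, gave 2.08 and -0.33.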

How the data were processed

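Linear spot intensity values in the deposited scanner files came, per the file headers, from Agilent Feature Extraction 10.7.1.1 with spatial detrending on and background correction off. Version 9.5.1.1 is what the submitters' processing notes give. The authors' deposited value table, also linear intensity, served as an alternative, and how it was scaled is not stated. Its columns share a median of 29.7 and a log2 SD of 3.68. It gave nearly the same results as quantile normalization, with 5873 against 5879 genes called in CaCl2 against sham. The deposited flags of the scanner (a 0 or 1 per spot, other values) gave detection, saturation and outliers. The labels name 2 RNA purification kits without settling which was used.

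Log2 processed signals were scaled to the 75th percentile of non-control spots, outlier spots were dropped and spots of 1 probe averaged. A probe was kept if well above background on all 3 arrays of a group (32166 of 55681 probes). Genes were named through accession, symbol or synonym in RefSeq GRCm38.p6, or else by the file, and the brightest kept probe stood for a gene. Where no array of a group was well above background, the ratio is a lower bound: the brighter group's mean over, per array of the dimmer group, the higher of the lowest signal well above background and the probe's own. The adjusted p of such a gene tests its measured difference, not the bound, and the bound depends on the background handling. The 3 groups entered 1 limma fit (limma 3.58.1, data.table version 1.17.8, R 4.3.3, 6 residual degrees of freedom), adjusted by Benjamini-Hochberg over 16402 genes at 0.05. The script was tested on simulated data. Figures used matplotlib. Columns mapped to no sample numbered 0. Lists of pathway genes and markers gave further names, the 2 largest called changes per direction and list, and Ccs and Mertk were chosen after their values were seen. A list gene that counts in its list's totals is not reported here by name. The 9 genes and all lists were chosen with earlier results of these data known. Likeness is the mean absolute log2 difference over 9 arrays after centring each gene.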

Additional observations from a re-analysis of the deposited data

How the results depend on the processing

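Across 23 other settings, 1 of them (each probe tested on its own) chosen after seeing the data, 6 or 7 of the 9 genes were called in CaCl2 against sham, 0 in CaCl2 plus IgG against CaCl2 and 5 to 8 in CaCl2 plus IgG against sham. Cybb, Cyba, Ncf1, Ncf4, Rac2 and Nox4 kept direction and call in all of them in CaCl2 against sham. The slide as a block and leaving out sham replicate 3 are the same fit, since the second slide held only that array. They count as 2 of the 23 settings. Quantile normalization and the authors' value table gave nearly the same values, so these 2 settings are not independent of each other. With median scaling, 2979 genes were called in CaCl2 plus IgG against sham (4768 with the 75th percentile), and the share of higher calls was 77.1% against 47.7% in CaCl2 against sham and 71.8% against 51.0% in CaCl2 plus IgG against sham. The dim-probe filter left off gave 32.8% in CaCl2 against sham. Genes called in CaCl2 against sham (6018 in the fit reported) numbered 3907 with the slide as a block and 3380 with the row as a block. Leaving out 1 array gave 3907 to 7398 genes in CaCl2 against sham (3907 without sham replicate 3, 3978 without CaCl2 replicate 1), 0 to 2 in CaCl2 plus IgG against CaCl2 (2 without CaCl2 plus IgG replicate 1) and 3015 to 6660 in CaCl2 plus IgG against sham (3015 without CaCl2 plus IgG replicate 2). Such fits leave fewer samples, and the cause of the other shifts was not tested. Some signs turned. With median scaling, Sod3 was 0.15 in CaCl2 against sham, Sod2 0.15 in CaCl2 plus IgG against sham, and Nox4 -0.21 and Sod1 -0.13 in CaCl2 plus IgG against CaCl2. In that comparison Rac2 was 0.0031 with quantile normalization, 0.0093 with the percentile over detected probes and 0.0033 in the series table, and Nox4 was -0.035 with normexp and -0.17 with the row block. Leaving out 1 array gave ranges of -0.20 to 0.25 for Nox4 and -0.18 to 0.15 for Rac2 there, -0.0074 to 0.25 for Sod2 in CaCl2 against sham and -0.17 to 0.048 in CaCl2 plus IgG against sham. Duox2 and Mpo turned although called in the fit reported: Duox2 in CaCl2 against sham was 0.039 with quantile normalization and 0.039 in the series table, and Mpo with normexp was -0.093 in CaCl2 and -0.040 in CaCl2 plus IgG against sham. Sod1 kept its call in CaCl2 plus IgG against sham in 10 of 23 settings, with adjusted p of 0.0156 to 0.693 (limma), and Sod3 was called there with trended and robust moderation (limma adjusted p = 0.0435). Same-numbered arrays of different groups had correlations of -0.20 to 0.22, with 3 of 9 over 0.1. Arrays of different numbers and groups had -0.23 to 0.20, so pairing by replicate number was not seen. So few arrays cannot exclude it. With the replicate block, 5760, 0 and 4651 genes and 7, 0 and 6 of the 9 were called in the 3 comparisons, and the Sod1 call in CaCl2 plus IgG against sham went to an adjusted p of 0.0541 (limma). The scan date was not run, since it coincides with the slide. The number of arrays, 3 per group, limits what can be seen.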
